A study of Mus musculus with 217 samples.

Results

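The 9 genes followed here mark how cells answer heat and cold, and they were read across both brain regions and both ages of a mouse model of Huntington's disease. They were Cirbp and Rbm3, which rise in the cold, and Hspa1a, Hspa1b, Hsph1, Dnajb1, Chordc1, Hspa8 and Hsp90aa1, which belong to the heat shock response. They make up 9 of 54532 genes in the count tables. They were picked by name, and some of them for how they had moved in the same libraries. Cirbp and Chordc1 had stood out between LacQ140 and WT + IPTG mice in the 6-month cortex, and Hspa1b between WT + IPTG and WT mice in the 12-month striatum. Those comparisons, and the other comparisons of groups or sexes that share their libraries in the same tissue and age, are therefore a description. No p-value of any of the 9 genes is given for them, and their counts past a threshold test nothing.

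RNA was sequenced from the striatum and cortex of C57BL/6 mice at 6 and 12 months of age, as 217 libraries from 110 mice. The sample titles call it mRNA. LacQ140 mice were Hdh(LacO-140Q/+):beta-actin-LacIR tg. They carried 1 huntingtin allele with Lac operators and an expanded repeat, and a Lac repressor transgene driven everywhere by the beta-actin promoter. WT mice, labelled Hdh(LacO-+/+):beta-actin-LacIR tg, had no expanded repeat and carried the same transgene, so the repressor was present in every group. IPTG, which releases the repressor, was given from embryonic day 5. WT mice never had IPTG and WT + IPTG mice always had it. LacQ140 mice always had IPTG and so expressed mutant huntingtin (mHtt) throughout. LacQ140_A mice never had it, and IPTG was withdrawn at 2 months in LacQ140_2M and at 8 months in LacQ140_8M mice, the last group being present only at 12 months. Each group held 10 mice, 5 of each sex, except that the 12-month striatum of WT, LacQ140 and LacQ140_8M held 9 libraries with 4 females. The study housed together mice of one sex, genotype and treatment, so the cage cannot be told apart from the group within a sex. Age coincided with the labelled batch, and every comparison was made within 1 age.

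Heat shock proteins are chaperones. They bind unfolded proteins, and under heat or proteotoxic stress heat shock factor 1 raises the transcription of the inducible members by binding inverted repeats of a short unit in their promoters. Cirbp and Rbm3 encode small RNA-binding proteins that rise under mild cooling and fall under heating. Both families are therefore known to report small shifts of tissue temperature in opposite directions, and both are also studied in neurodegeneration.

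The promoters of the cold gene Cirbp and of 3 heat genes are shown because they hold the short elements for which both families are known. Each line gives the 250 bases before the first RefSeq start site listed, 5′ to 3′ on the gene's strand (assembly GRCm38.p6). Capitals mark GAANNTTC or TTCNNGAA, the inverted pair of heat shock units, and TCCCCGCC, the mild cold element, on either strand.
Cirbp promoter, chr10:80167589-80167838, plus strand: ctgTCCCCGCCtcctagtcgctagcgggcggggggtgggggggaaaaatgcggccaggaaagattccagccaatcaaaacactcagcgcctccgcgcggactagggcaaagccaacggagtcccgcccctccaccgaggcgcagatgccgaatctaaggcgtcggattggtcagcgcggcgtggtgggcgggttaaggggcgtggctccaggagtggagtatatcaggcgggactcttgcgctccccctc
Hspa1a promoter, chr17:34972157-34972406, minus strand: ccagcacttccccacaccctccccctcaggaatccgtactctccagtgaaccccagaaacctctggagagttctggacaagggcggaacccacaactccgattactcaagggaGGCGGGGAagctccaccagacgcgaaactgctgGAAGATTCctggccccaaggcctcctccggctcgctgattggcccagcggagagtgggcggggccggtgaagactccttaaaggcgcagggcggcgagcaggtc
Hspa1b promoter, chr17:34959239-34959488, minus strand: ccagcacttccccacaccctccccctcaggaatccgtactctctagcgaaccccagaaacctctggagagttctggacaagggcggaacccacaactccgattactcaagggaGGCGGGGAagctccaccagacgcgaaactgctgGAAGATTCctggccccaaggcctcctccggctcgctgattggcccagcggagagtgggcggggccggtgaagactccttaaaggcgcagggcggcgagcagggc
Hsph1 promoter, chr5:149636337-149636586, minus strand: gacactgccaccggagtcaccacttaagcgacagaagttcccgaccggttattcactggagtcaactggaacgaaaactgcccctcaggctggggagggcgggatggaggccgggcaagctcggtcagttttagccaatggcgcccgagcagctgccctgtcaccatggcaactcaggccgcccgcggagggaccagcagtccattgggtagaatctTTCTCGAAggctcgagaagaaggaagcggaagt

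The inverted pair lay 104 to 97 bases before the start of Hspa1a and Hspa1b and 33 to 26 bases before that of Hsph1. It was found in 12.8% of 32851 mouse promoters. The mild cold element lay at the far end of the Cirbp window, ending 240 bases before the start, and also 137 to 130 bases before the start of both Hspa1 genes, there on the opposite strand. It was found in 4.64% of promoters. RefSeq lists 2 start sites each for Cirbp, Hsph1 and Dnajb1. The second Cirbp window (chr10:80167921-80168170) held no mild cold element, and the second Hsph1 window (chr5:149636316-149636565) held the inverted pair 54 to 47 bases before its start. A full heat shock element of 3 units occurred in 0.466% of promoters and in none of the windows read for these genes. Promoter entries were present for 6 of the 9 genes, and those of Dnajb1 and Chordc1 held none of these motifs. The Hspa1a and Hspa1b promoters differed at 3 of 250 bases. A match of letters is a description and not a measured binding site.

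The near identity of the Hspa1 promoters continued into the transcripts, which limits how well these genes could be told apart. Hspa1a (ENSMUSG00000091971, chr17:34969190-34972156) and Hspa1b (ENSMUSG00000090877, chr17:34956436-34959238), neighbours on the minus strand that encode the inducible HSP70, were 89.9% identical over 2796 aligned bases. Of the 100-base windows of Hspa1a, 47.1% occurred unchanged in Hspa1b. The estimated counts of both were not whole numbers (more than 1e-06 from one) in any library, as happens when reads are shared out between copies. Their individual values are therefore uncertain, and fitting their summed counts is given as an alternative. Those of Hspa8 and Hsp90aa1 were not whole in 99.1% and in all of the libraries and those of Rbm3 in 98.6%. Rbm3 has an overlapping antisense gene, Rbm3os. Dnajb1 counts were whole in every library, and those of Cirbp, Hsph1 and Chordc1 were not whole in 42.9% to 49.8%. All 9 genes had counts in all 217 libraries, so none was lost to a filter.

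Per kilobase of transcript, Hspa8 and Hsp90aa1 had the highest levels and the Hspa1 genes the lowest (CPM, TMM-scaled read counts relative to library size). In the 6-month striatum the median level of Hspa8, the constitutive HSC70, was 729 CPM per kb, and that of Hsp90aa1, the stress-inducible cytosolic HSP90, was 229.9 CPM per kb. The cold gene Cirbp followed at 79.7 CPM per kb, ahead of Hsph1 (HSP110, the nucleotide exchange factor of HSP70) at 60.1 and Rbm3 at 56.7 CPM per kb. Dnajb1, the HSP40 that hands clients to HSP70, had 18.7 CPM per kb, and Chordc1, an HSP90 co-chaperone, had 5.44 CPM per kb. The Hspa1 genes came last, with 1.25 CPM per kb for Hspa1a and 0.665 CPM per kb for Hspa1b. Across the 50 libraries of the 6-month striatum the coefficient of variation was 150.3% for Hspa1b and 98.4% for Hspa1a, against 8.63% for Hspa8 and 8.12% for Hsp90aa1. Most of the spread of the Hspa1 genes came from 1 library, WT M3, and without it the values were 46.6% and 34.3%, against 7.12% and 6.48%.

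Library totals ranged from 33292057 to 68038831 counts. No library went against its labelled sex. Htt was lower in LacQ140_A than in WT in all 4 tissue and age sets, by 0.40 to 0.72 on the log2 scale (edgeR adjusted p of 0.0041 or less), and 12-month cortex was the set with the largest fall. Htt was not called in LacQ140_A against LacQ140 in any set (−0.20 to −0.49), nor in LacQ140_2M (−0.15 to −0.43) or LacQ140_8M (−0.41 in the cortex and −0.0 in the striatum). In the 12-month striatum LacQ140_A was lower than LacQ140 by less than the 20% bound used below (−0.25 ± 0.069, edgeR adjusted p 0.049). It was already lower in LacQ140 than in WT + IPTG in the 6-month cortex (−0.36 ± 0.072) and the 12-month striatum (−0.40 ± 0.069). These gene counts do not separate the mutant from the normal allele. The 12-month cortex libraries stood apart in the slope of expression on transcript length, a measure that moves with RNA quality (range −0.362 to 0.073, against 0.122 to 0.541 in the other 3 sets). Summed markers of spiny projection neurons had medians of 137 to 238 CPM in the cortex groups against 3275 to 5471 CPM in the LacQ140 and WT + IPTG striatum. A gene is said below to have changed where edgeR's quasi-likelihood test gave a Benjamini-Hochberg adjusted p under 0.05 and the fold change was at least 20%. Errors on log2 fold changes are standard errors.

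The first comparison asked what mHtt did to these genes, with IPTG given to both groups. In the striatum at 6 months, LacQ140 mice had more of both cold genes and less of the HSP90 co-chaperone Chordc1. Of the 9 genes 3 changed, against a background of 7.93% of 35808 genes. Cirbp and Chordc1 had been picked in the cortex of the same mice, so their p-values here are not independent of that choice. The median log2 fold change of the 9 genes was 0.05, and that of all genes was −0.005.

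Cirbp ran from 109 to 161 CPM in LacQ140 with a median of 134, and from 64.1 to 120.9 CPM in WT + IPTG with a median of 86.3. All 10 LacQ140 libraries were above the WT + IPTG median, and the groups overlapped at their edges. The log2 fold change was 0.57 ± 0.099 (adjusted p 2.7e-05). Rbm3 ran from 161 to 234 CPM (median 193) in LacQ140 and from 116.4 to 191 CPM (median 149) in WT + IPTG. It too was above the WT + IPTG median in 10 of 10 libraries, with a log2 fold change of 0.37 ± 0.098 (adjusted p 0.0066).

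Chordc1 was the 1 gene of the 9 whose groups did not overlap, against 1.15% of all genes. Its highest LacQ140 library, at 29.6 CPM, was below its lowest WT + IPTG library, at 32.3 CPM, and the medians were 25.1 and 43.8 CPM. The log2 fold change was −0.77 ± 0.113 (adjusted p 9.3e-07). Hsph1 was lower by less than the 20% bound (−0.22 ± 0.065, adjusted p 0.016). The other heat genes gave small values, namely 0.36 for Hspa1a (adjusted p 0.55), 0.07 for Hspa1b (1.0), 0.05 for Dnajb1 (0.79), −0.06 for Hspa8 (0.56) and −0.07 for Hsp90aa1 (0.41). Cirbp, Rbm3 and Chordc1 also passed the threshold when females were fitted alone (background 5.09%), and Cirbp and Chordc1 when males were fitted alone (3.74%), with Rbm3 at 0.33 in males. In the same libraries the summed level of 6 markers of spiny projection neurons, the main striatal cell type, had a median of 3433 CPM in LacQ140 (3007 to 4020) and 4311 CPM in WT + IPTG (3455 to 5259). The oligodendrocyte markers (7451 to 9478 against 9626 to 11767 CPM) and the astrocyte markers (810.2 to 948 against 957 to 1226 CPM) were lower in LacQ140 without overlap. Microglia, endothelial, choroid plexus, cortical neuron and red blood cell markers overlapped. Their part in these values was not tested. In tissue RNA, fewer cells of a type and less RNA per cell cannot be told apart.

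**Figure D1:**
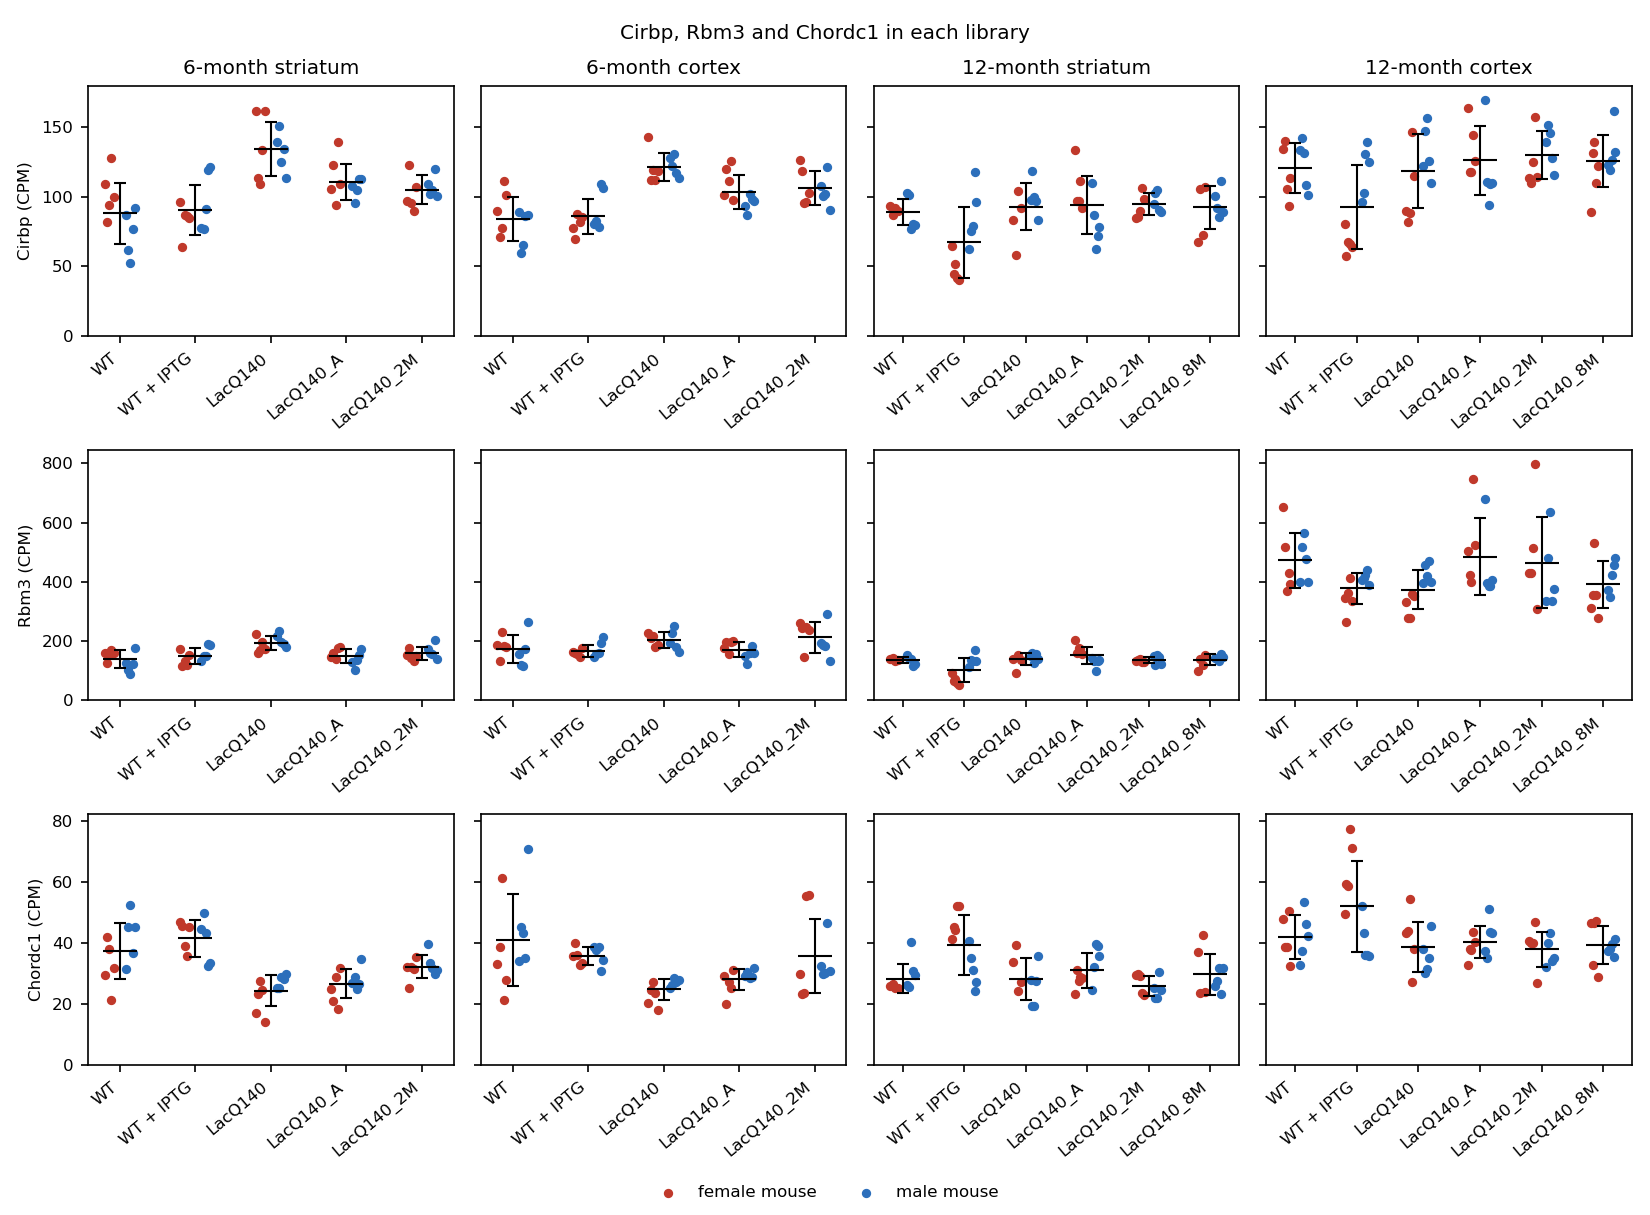
Cirbp, Rbm3 and Chordc1 in each library (CPM on the vertical axis, groups on the horizontal axis, 1 panel for each tissue and age). Red points are females and blue points males, lines are means and bars are SD. In the 6-month striatum the LacQ140 points lie high for Cirbp (109 to 161) and Rbm3 (161 to 234) and low for Chordc1 (14.03 to 29.6), and in the 12-month striatum the WT + IPTG females lie below the males for Rbm3 (51.2 to 94.0 against 112 to 169.9) and overlap them for Cirbp.

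The cortex of the same mice at 6 months gave the values on which Cirbp and Chordc1 had been picked, and 2 of the 9 genes were past the threshold there (background 0.881% of 35987 genes). They are set down as a description. Chordc1 was not past it with DESeq2 size factors, with the replicate block, in 17 of 20 fits without 1 library or in either sex alone. Females alone had Cirbp past it (0.58, background 0.0439%), with Chordc1 at −0.66. Males alone had 0 of the 9 past it, where 2 of all 34104 genes were (0.00586%). Cirbp was at 0.42 and Chordc1 at −0.42 in those males. Cirbp ran from 112 to 143 CPM in LacQ140 and from 69.8 to 109 CPM in WT + IPTG. Chordc1 ran from 17.9 to 28.5 CPM and from 30.8 to 39.9 CPM. Neither gene overlapped between the groups, which held for 2 of the 9 genes and 0.117% of all genes. Every list of cell type markers overlapped there. Medians in LacQ140 and WT + IPTG were 1110 and 1279 CPM for astrocyte and 175 and 198.5 CPM for endothelial markers. Choroid plexus, cortical neuron and spiny projection neuron medians were higher in LacQ140 and those of the other lists lower. Their part was not tested. Rbm3 was higher by 0.28 ± 0.116 and Hsph1 lower (−0.24), and neither was called. With the compared groups alone Rbm3 was past the threshold (0.29). The striatal values above came from the same mice, and are not independent of this choice.

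At 12 months the comparison rested on WT + IPTG mice that differed by sex, described below. In the striatum 6 of the 9 genes passed the threshold (background 9.44% of 35386 genes), with Cirbp (0.46 ± 0.128) and Rbm3 (0.44 ± 0.126) higher in LacQ140 and Hspa1b (−1.38 ± 0.313), Hspa1a (−0.63 ± 0.197), Chordc1 (−0.48 ± 0.123) and Hsph1 (−0.28 ± 0.075) lower. These WT + IPTG libraries were the ones on which Hspa1b had been picked. The spiny projection neuron markers did not overlap there (2839 to 3571 CPM in LacQ140 and 4443 to 6499 CPM in WT + IPTG), and their part was not tested. Rbm3 and Hspa1a were not past it with the compared groups alone, nor Hspa1a with the replicate block (−0.51). When females were fitted alone 7 of the 9 were past the threshold (background 8.79%), and when males were fitted alone 0 were (background 7.86%). In those females the astrocyte (675.4 to 732 against 835 to 894 CPM), endothelial (137 to 172 against 178 to 199 CPM) and red blood cell markers (107 to 226 against 276.3 to 403 CPM) were lower in LacQ140 without overlap, and in males these lists overlapped. Their part was not tested either. In males Hspa1a (0.34) and Hspa1b (0.32) had the opposite sign, and Cirbp was at 0.21, Rbm3 at 0.10 and Chordc1 at −0.28. In the 12-month cortex 0 of the 9 genes changed by edgeR or by DESeq2, 5 had an unadjusted p under 0.05, and the background was 0.0899% of 34493 genes. The nearest were Chordc1 (−0.42, adjusted p 0.15), Dnajb1 (−0.28, 0.2) and Cirbp (0.35, 0.38). Choroid plexus markers had a median of 567 CPM in LacQ140 (6.19 to 1102) and 18.0 CPM in WT + IPTG (2.13 to 1326) in that set, and their part was not tested. The single-sex fits of that set had backgrounds of 0.0276% in females, with Dnajb1 called (−0.55), and 0.0123% in males, with 0 of the 9.

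The next comparisons asked whether lowering mHtt moved these genes away from their LacQ140 levels. In the 6-month striatum Rbm3 was called in LacQ140_A, and Cirbp and Chordc1 in LacQ140_2M. All of these comparisons share the LacQ140 libraries with the one above, so the values are given side by side. Against LacQ140, 1 of the 9 genes changed in LacQ140_A (background 1.88%) and 2 changed in LacQ140_2M (1.26%).

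In LacQ140_A Rbm3 was at 150.2 ± 24.0 CPM (SD, n = 10) against 194 ± 24.4 CPM in LacQ140, a log2 fold change of −0.37 ± 0.098 (adjusted p 0.023). That is close to its WT + IPTG mean of 150.5 CPM. In LacQ140_2M Rbm3 was at 159 CPM (−0.29, adjusted p 0.15). Cirbp fell in LacQ140_2M to 105 ± 10.3 CPM from 134 ± 19.2 CPM (−0.35 ± 0.099, adjusted p 0.048), and stood at 110.4 CPM in LacQ140_A (−0.28 ± 0.099, adjusted p 0.14). Chordc1 rose in LacQ140_2M, from 24.3 ± 5.12 to 32.2 ± 3.69 CPM (0.40 ± 0.113, adjusted p 0.048). It stood at 26.6 CPM in LacQ140_A (0.13, adjusted p 0.75), and both were below its WT + IPTG mean of 41.5 CPM. Whether LacQ140_A and LacQ140_2M differed from each other was not tested. Cell type markers moved in the same libraries, and their part was not tested. The summed spiny projection neuron markers ran from 3930 to 5833 CPM in LacQ140_A (median 4296) and from 3924 to 4585 CPM in LacQ140_2M (median 4215), against 3007 to 4020 CPM in LacQ140 (median 3433). The microglia markers ran from 229.8 to 275.3 CPM in LacQ140_A and from 211 to 259.6 CPM in LacQ140_2M, against 194 to 237 CPM. Both lists overlapped at their edges, and the other 6 lists overlapped as well. With the compared groups alone Cirbp was also called in LacQ140_A (adjusted p 0.026) and Rbm3 in LacQ140_2M (0.016), so both cold genes were then called in both arms. The LacQ140_2M calls were narrow. Cirbp was lost there with the replicate block (adjusted p 0.068) and with the length slope as a covariate (0.061). Leaving out 1 library at a time lost a call in 16 of 20 fits, with Cirbp lost in 13 and Chordc1 in 15. Rbm3 in LacQ140_A was lost without LacQ140 F1, LacQ140 M2 or LacQ140_A M2.

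Elsewhere none of the 9 genes changed with lowering when all groups of a set were fitted together. In the 6-month cortex, described only, 0 of 9 were called in LacQ140_A (background 0.00834%), and 2 had an unadjusted p under 0.05. In LacQ140_2M 0 of 9 were called there, 4 of them had an unadjusted p under 0.05, and the background was 0.0%, with 3498 of all genes at an unadjusted p under 0.05 and 6 called by DESeq2. Chordc1 had its largest value there, at 0.53. In the 12-month striatum the backgrounds were 0.91% in LacQ140_A, 0.608% in LacQ140_2M and 0.00565% in LacQ140_8M, and in each 2 of the 9 had an unadjusted p under 0.05. In the 12-month cortex they were 0.0435%, 0.0841% and 0.0% (977 genes at an unadjusted p under 0.05, 0 called by DESeq2), with 1, 1 and 0 of the 9 at an unadjusted p under 0.05. DESeq2 called 0 of the 9 genes in each of these 8 comparisons. Rbm3 in LacQ140_A (0.38, adjusted p 0.23) was the largest of the 12-month cortex values. With the compared groups alone edgeR called it (0.38, adjusted p 0.0047). Rbm3 went with the length slope in that set (r −0.70), and the median slope was −0.202 in LacQ140_A and −0.11 in LacQ140. The part of the slope was not tested.

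LacQ140_A and WT mice both never had IPTG, so this comparison holds the repressed mutant allele against WT without the inducer. Chordc1 was lower in LacQ140_A in the striatum at 6 months, and 2 of the 9 genes changed (background 0.91%). Chordc1 ran from 18.2 to 34.6 CPM (median 26.7) in LacQ140_A and from 21.3 to 52.2 CPM (median 37.2) in WT. The groups overlapped, but 0 of 10 LacQ140_A libraries were above the WT median (−0.49 ± 0.113, adjusted p 0.014). Chordc1 did not pass with the compared groups alone (−0.48, adjusted p 0.053) or without the library WT M3 (−0.42, adjusted p 0.06). Cirbp was above the WT median in 10 of 10 libraries and did not pass (0.32 ± 0.099, adjusted p 0.09).

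Hspa1b was the other called gene, at −1.56 ± 0.367 (adjusted p 0.017), and it rested on 1 WT library. WT M3 had 29.3 CPM of Hspa1b while the other 9 WT libraries ran from 0.740 to 4.36 CPM. Without that library the log2 fold change was −0.52 and 0 of the 9 genes were called. In the cortex of the 6-month mice 0 of 9 were called (background 0.425%), 5 had an unadjusted p under 0.05 and DESeq2 called 1. Cirbp was again above the WT median in 10 of 10 libraries (0.30 ± 0.083, adjusted p 0.081) and Chordc1 in 0 of 10 (−0.55 ± 0.141, adjusted p 0.055). At 12 months 0 of 9 changed in the striatum (background 3.15%) or the cortex (0.0174%) by edgeR or by DESeq2, and 1 in each had an unadjusted p under 0.05. Cirbp was at 0.08 and 0.07 there, and Chordc1 at 0.13 and −0.06.

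**Figure D2:**
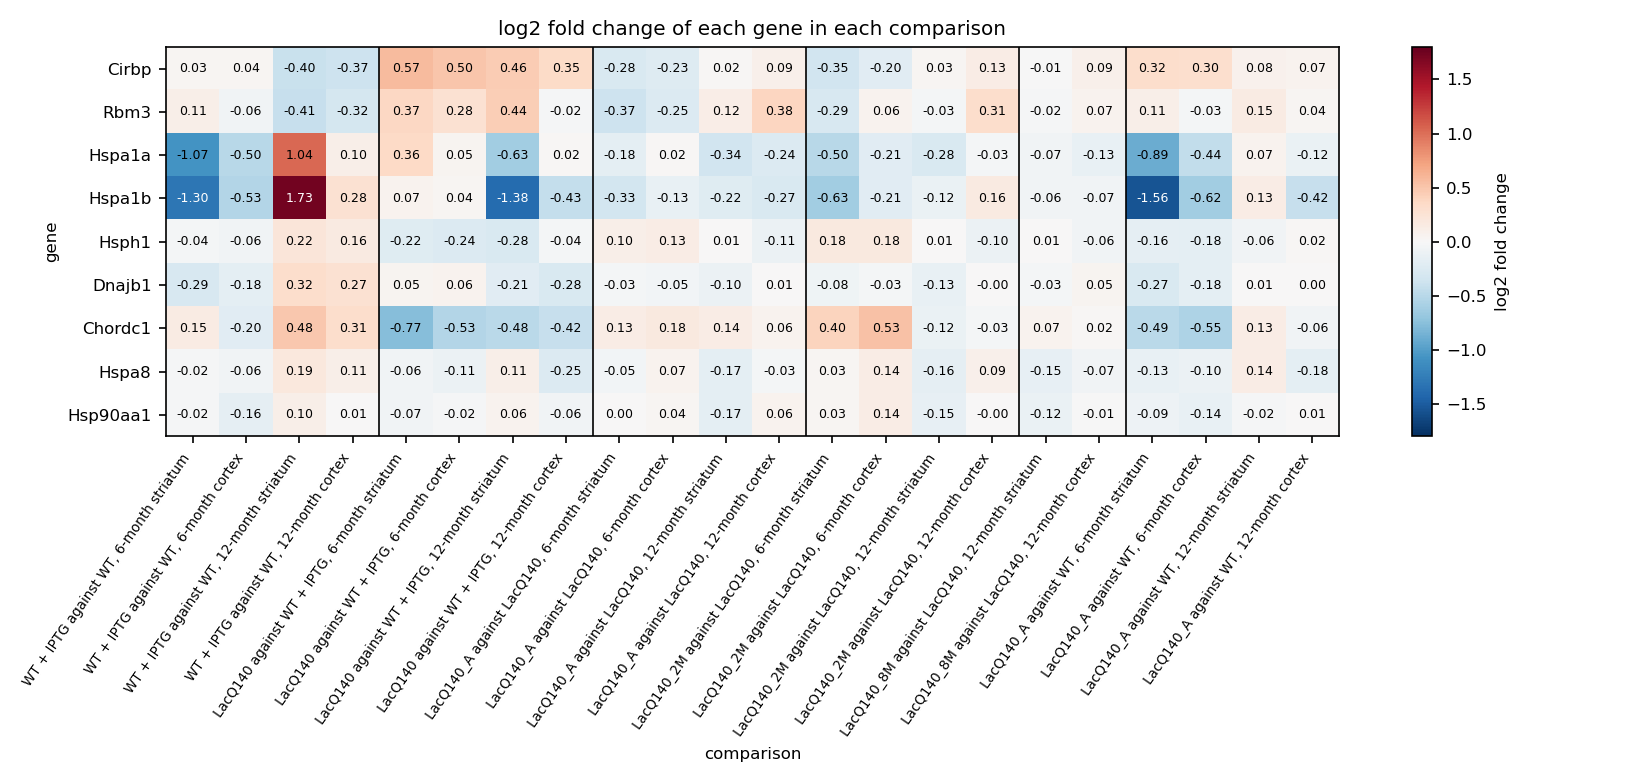
log2 fold change of each of the 9 genes (rows) in each group comparison, tissue and age (columns), with the value written in each cell. Red is higher and blue lower in the first-named group. The largest values are those of Hspa1b, from 1.73 (WT + IPTG against WT, 12-month striatum) to −1.56 (LacQ140_A against WT, 6-month striatum), and Cirbp and Chordc1 have opposite signs in the 4 LacQ140 against WT + IPTG columns.

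IPTG itself was then compared with no IPTG in WT mice. In the 12-month striatum the inducible HSP70 genes were higher with IPTG, and that was the contrast on which Hspa1b had been picked. Of the 9 genes 2 were past the threshold there (background 0.218%), Hspa1b at 1.73 ± 0.326 and Hspa1a at 1.04 ± 0.204. The count was 0 with the compared groups alone, 1 with the replicate block and 4 with DESeq2, and it ran from 0 to 6 without 1 library. The other values were −0.40 for Cirbp, −0.41 for Rbm3, 0.48 for Chordc1, 0.32 for Dnajb1, 0.22 for Hsph1, 0.19 for Hspa8 and 0.10 for Hsp90aa1, and none of these 7 passed.

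In the library values the difference lay in the females. Hspa1a was at 25.7, 12.3, 15.95, 14.9 and 17.5 CPM in the 5 WT + IPTG females, and at 8.16, 4.68, 5.05, 4.84 and 3.59 CPM in the 5 males. The 9 WT libraries ran from 4.34 to 6.92 CPM. Every WT + IPTG female was therefore above every WT library, and the males lay around the WT range. Of the 9 genes 7 had no overlap between these females and WT, against 3.63% of all genes. Hspa1b showed the same order, with 9.04 to 25.1 CPM in WT + IPTG females, 1.15 to 5.51 CPM in WT + IPTG males and 1.33 to 4.06 CPM in WT.

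The cold genes were lower in most of these females. Cirbp was at 64.5, 44.7, 51.6, 41.8 and 40.2 CPM in WT + IPTG females and at 62.5, 75.7, 79.0, 118 and 95.99 CPM in males. Rbm3 ran from 51.2 to 94.0 CPM in the females, from 112 to 169.9 CPM in the males and from 117 to 155 CPM in WT. All 5 females were below every WT library for both cold genes, whose lowest WT values were 76.8 CPM for Cirbp and 117 CPM for Rbm3. For Cirbp the sexes overlapped, with the highest female above the lowest male, and 2 of the 5 males (62.5 and 75.7 CPM) were also below every WT library. For Rbm3 1 of the 5 males was, at 112 CPM.

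**Figure D3:**
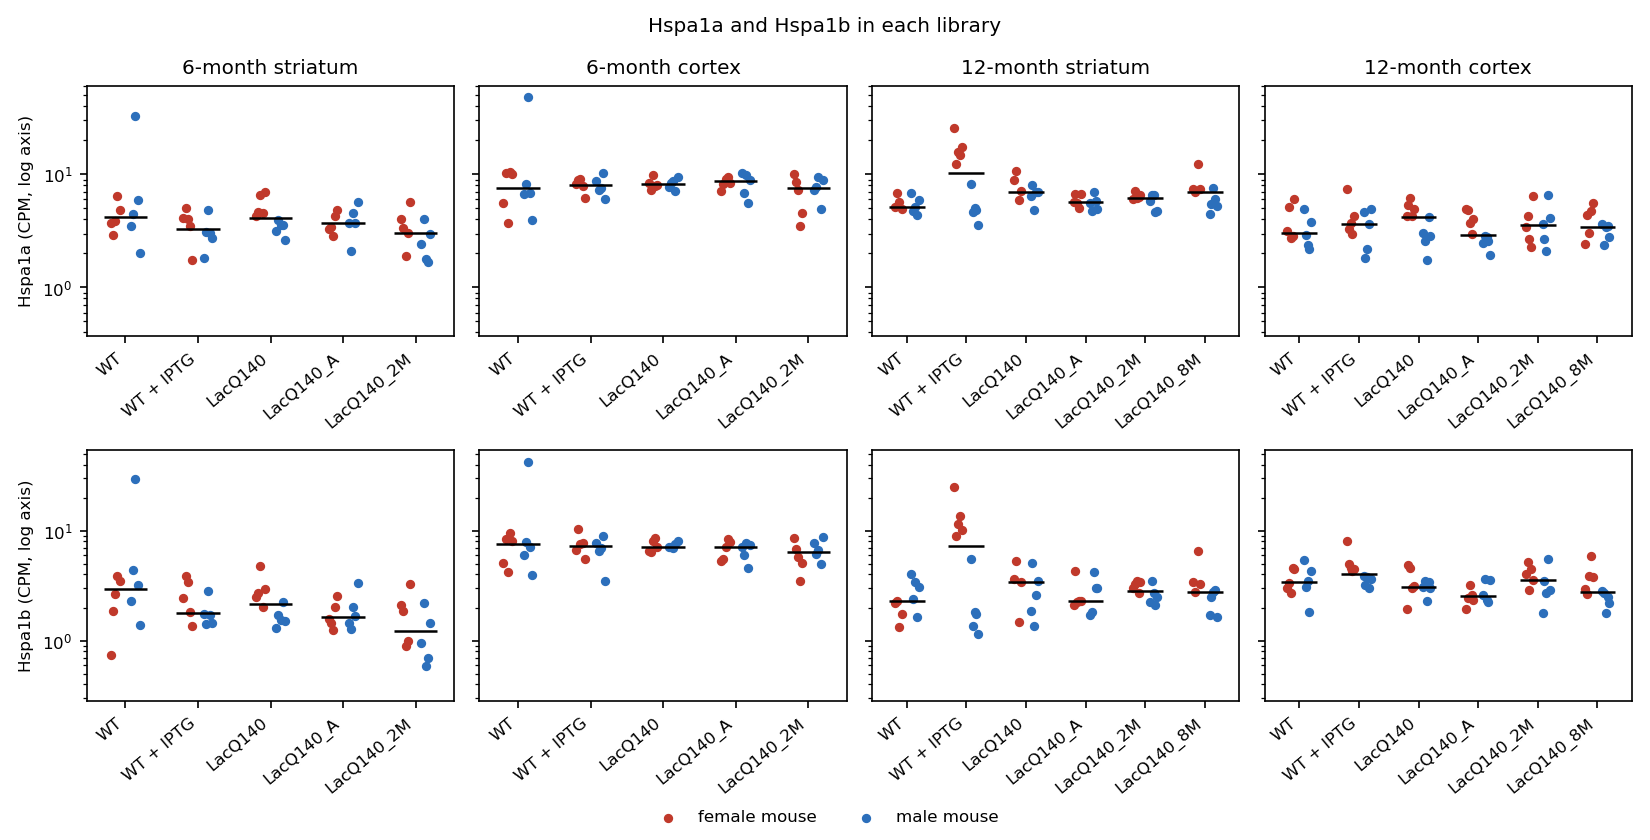
Hspa1a and Hspa1b in each library (CPM on a log axis, groups on the horizontal axis, 1 panel for each tissue and age). Red points are females, blue points males and lines group medians. The 5 WT + IPTG females of the 12-month striatum lie above all WT points (12.3 to 25.7 CPM of Hspa1a), and WT M3 stands alone at 6 months in both tissues (32.7 and 48.03 CPM of Hspa1a).

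A fit with sex as a factor, chosen after these values had been seen, gave the difference of the IPTG effect between males and females in every set. In the 12-month striatum 8 of the 9 genes were past the threshold, against a background of 4.38%. The effect, male minus female, was −3.18 ± 0.471 for Hspa1b, −1.65 ± 0.254 for Hspa1a, −0.81 ± 0.215 for Chordc1, −0.59 ± 0.129 for Dnajb1, −0.51 ± 0.127 for Hsph1 and −0.49 ± 0.094 for Hsp90aa1. It was positive for the cold genes, at 1.02 ± 0.164 for Rbm3 and 0.87 ± 0.2 for Cirbp. Hspa8 was not past the threshold (−0.35 ± 0.114). In females fitted alone all 9 genes were past it (background 9.03%), from −1.01 ± 0.124 for Rbm3 and −0.90 ± 0.138 for Cirbp to 1.62 ± 0.174 for Hspa1a and 2.89 ± 0.291 for Hspa1b. Hspa8 was at 0.35 ± 0.068 and Hsp90aa1 at 0.34 ± 0.057. In males 0 of the 9 were, edgeR called no gene (0.0%, with 1454 genes at an unadjusted p under 0.05), and the values ran from −0.30 for Hspa1b to 0.06 for Chordc1. With cages of one sex, genotype and treatment, cage and IPTG cannot be told apart within the females.

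Other measures moved with these females, and their part was not tested. The slope of expression on transcript length was 0.447 to 0.479 in WT + IPTG females and 0.31 to 0.372 in WT females, with no overlap. The summed endothelial markers ran from 178 to 199 CPM against 139 to 175 CPM, and the summed astrocyte markers from 835 to 894 CPM against 729 to 807 CPM. The summed spiny projection neuron markers overlapped, at 4443 to 5892 against 5087 to 5903 CPM. Red blood cell markers overlapped too, at 276.3 to 403 against 146 to 371 CPM.

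The cortex of the same 12-month mice showed a part of this split. Cirbp averaged 67.03 ± 8.37 CPM in WT + IPTG females (57.7 to 80.5) and 118 ± 18.4 CPM in males (95.8 to 139), which did not overlap. Dnajb1 averaged 110.6 CPM in females (97.9 to 127) and 74.97 CPM in males (67.2 to 82.4), again without overlap. With Hspa1b that held for 3 of the 9 genes, against 3.03% of all genes. Chordc1 was at 63.2 and 40.6 CPM, and Hspa1a, at 4.34 and 3.45 CPM, was close in both sexes. Every marker list and the length slope overlapped between these females and males. The oligodendrocyte markers ran from 4945 to 6662 CPM in females and from 6644 to 8249 CPM in males. Median cortical neuron markers were 612 and 811 CPM, and median slopes −0.206 and −0.118. Dnajb1 had an r of −0.40 with the slope in this set. The part of these measures was not tested. Over both sexes 0 of the 9 changed with IPTG (Cirbp −0.37, adjusted p 0.46; Chordc1 0.31, adjusted p 0.62; Dnajb1 0.27, adjusted p 0.41), and 4 had an unadjusted p under 0.05. The background was 0.0%, with 2001 genes at an unadjusted p under 0.05 by edgeR and 15 called by DESeq2, none of them among the 9. The sex difference of the effect called 0 of 9 (background 0.0058%), with 4 at an unadjusted p under 0.05, and was −0.64 for Dnajb1 (adjusted p 0.074) and 0.75 for Cirbp (adjusted p 0.32). Females fitted alone had Cirbp at −0.80 ± 0.148 and Dnajb1 at 0.56 ± 0.101 past the threshold (background 0.0891%), and males had 0 of 9 (0.0%, with 1405 genes at an unadjusted p under 0.05).

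**Figure D4:**
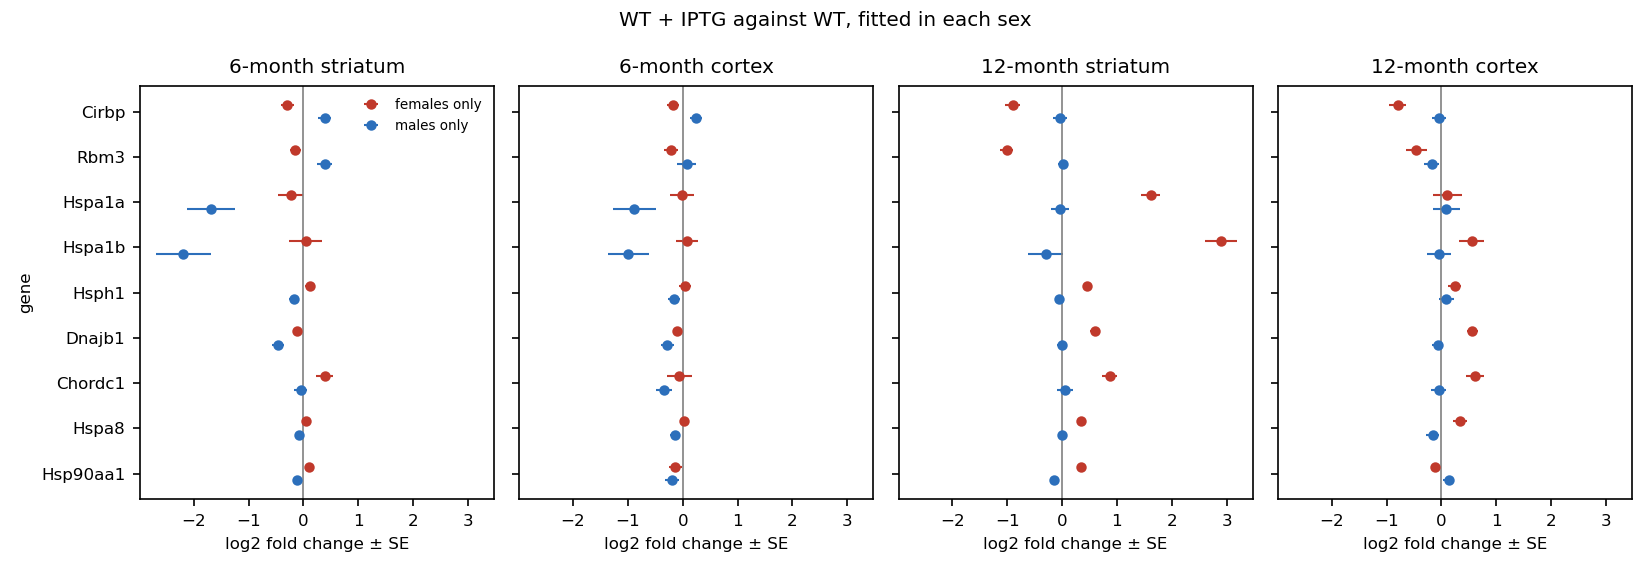
log2 fold change of WT + IPTG against WT (horizontal axis; bars are SE) of each of the 9 genes, fitted in females (red) and males (blue) alone, in 4 panels by tissue and age. In the 12-month striatum the female points run from −1.01 (Rbm3) to 2.89 (Hspa1b) while the male points lie between −0.30 and 0.06.

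At 6 months none of the 9 genes changed with IPTG. In the striatum 0 of 9 were called by edgeR or DESeq2 (background 0.584%), and 3 had an unadjusted p under 0.05. Hspa1b was at −1.30 (adjusted p 0.065), Hspa1a at −1.07 (0.062) and Dnajb1 at −0.29 (0.055). These values rested on WT M3 as well, and leaving it out brought Hspa1b to −0.26 and Hspa1a to −0.30. Females alone gave 0 of 9 and no gene at all by edgeR (0.0%, with 2195 genes at an unadjusted p under 0.05). Males alone, which include WT M3, gave Hspa1b at −2.19 ± 0.497, Hspa1a at −1.68 ± 0.433 and Dnajb1 at −0.46 ± 0.115 past the threshold (background 1.58%). The sex difference of the effect called 0 of 9 (background 0.0922%), although 8 had an unadjusted p under 0.05, and was 0.69 for Cirbp (adjusted p 0.11). In the 6-month cortex 0 of 9 were past the threshold for IPTG (background 0.609%) and for its sex difference (0.025%), with 3 and 2 of the 9 at an unadjusted p under 0.05.

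Sex was also compared over all groups. In the 12-month striatum 1 of the 9 genes was past the threshold (background 0.218%), Hspa1a at −0.51 ± 0.103 in males against females. The WT + IPTG females above are among those libraries, so the value is a description. None of the 9 was called in the 6-month striatum (background 0.279%), the 6-month cortex (0.192%) or the 12-month cortex (0.154%) by edgeR or DESeq2, where 1, 1 and 5 had an unadjusted p under 0.05.

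Striatum and cortex were compared within mice. At 6 months the inducible HSP70 genes had the largest differences of the 9, and both were lower in the striatum. Of the 9 genes 5 changed, against a background of 35.3% of 37981 genes. Hspa1b ran from 0.583 to 29.3 CPM in the striatum and from 3.47 to 42.5 CPM in the cortex, and its log2 difference was −1.76 ± 0.077 (adjusted p 3.8e-29), and that of Hspa1a was −1.10 ± 0.07 (2.4e-21). Hsp90aa1 was lower in the striatum by −0.30 ± 0.029 (2e-13), while Hsph1 (0.33 ± 0.025, 3.9e-18) and Hspa8 (0.29 ± 0.02, 4.4e-20) were higher. The cold gene Cirbp was nearly level (0.04 ± 0.024, 0.16), and Rbm3 was lower by less than the bound (−0.25 ± 0.029, 2.9e-11). With DESeq2 size factors, or with genes kept by filterByExpr, Rbm3 was at −0.27 and called.

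At 12 months 7 of the 9 changed, but so did 54.3% of all 37294 genes. Rbm3 had group means of 102.8 to 152 CPM in the striatum and 374 to 486 CPM in the cortex, a log2 difference of −1.85 ± 0.046 (adjusted p 5.3e-46). Cirbp (−0.61 ± 0.023, 2.4e-35), Chordc1 (−0.62 ± 0.027, 3.3e-32), Dnajb1 (−0.68 ± 0.023, 3.7e-38) and Hspa8 (−0.47 ± 0.032, 5e-22) were lower in the striatum, and Hsph1 (0.95 ± 0.029, 3.3e-41) and Hspa1a (0.73 ± 0.071, 5.3e-15) higher. Hspa1a and Hspa8 thus had opposite signs at 6 and 12 months. Hspa1b was at −0.23 at 12 months and not called, but it was called with DESeq2 size factors (−0.3) and with genes kept by filterByExpr (−0.28). The 12-month cortex is the set whose length slope stood apart, and there Htt itself was 2.25 higher in the striatum on the log2 scale, against 0.02 at 6 months. Within the 12-month cortex the correlation with that slope was −0.70 for Rbm3, 0.60 for Hsph1 and −0.52 for Hspa8 over 60 libraries, which share a batch. The part of the slope in the tissue differences was not tested, and age and batch cannot be told apart.

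No gene of the 9 was called for a difference between tissues in the effect of IPTG or of LacQ140 against WT + IPTG at either age. The backgrounds for IPTG were 0.0527% at 6 months and 0.0% at 12 months, where 1746 genes had an unadjusted p under 0.05 by edgeR, the one tool run, and those for LacQ140 were 1.12% and 2.8%. The counts of the 9 at an unadjusted p under 0.05 were 2 and 2 for IPTG and 1 and 3 for LacQ140. The largest value was that of Hspa1b with IPTG at 12 months (1.05 ± 0.296, striatum minus cortex).

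Mice of the same group differed among themselves, and some of these genes varied together. After the group mean had been taken from log2(CPM + 0.5), Cirbp and Rbm3 rose and fell together at 6 months over 50 libraries a tissue. Pearson's r was 0.817 in the striatum (rho 0.794) and 0.647 in the cortex (rho 0.626), with a permutation p of 1e-05 for each r, the smallest that 100000 resamples can give. Adjusted over the 144 pairs of the family both were 3.6e-05. Without the 2 libraries farthest from the median of Cirbp, r was 0.776 and 0.636. At 12 months, where several genes differed by sex in WT + IPTG, means of each sex within a group were taken off instead, and r was 0.807 in the striatum and 0.617 in the cortex (permutation, adjusted p 0.00021 for both).

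Cirbp ran against the HSP90 co-chaperone and HSP110. With Chordc1, r was −0.714 in the 6-month striatum (rho −0.548, permutation adjusted p 3.6e-05) and −0.409 in the 6-month cortex (rho −0.457, adjusted p 0.021). Without the 2 farthest libraries these were −0.628 and −0.306, and the cortex value no longer passed (permutation adjusted p 0.076). It did not pass with the means of each sex taken off either (−0.373, permutation adjusted p 0.053). With the means of each sex taken off, they were −0.864 and −0.437 in the 12-month striatum and cortex (adjusted p 0.00021 and 0.0029). With Hsph1, r was −0.782 and −0.532 at 6 months (rho −0.725 and −0.515, permutation adjusted p 3.6e-05 and 0.001), and −0.771 and −0.601 at 12 months with the means of each sex taken off. Cirbp also went with the length slope (r −0.47 in the 6-month and −0.38 in the 12-month striatum), and its sign with Chordc1 and Hsph1 was the same with that slope regressed out. In the 12-month cortex not every pair had these signs. With the means of each sex taken off, Rbm3 rose there with Hspa8 (r 0.482, permutation adjusted p 0.00092), Dnajb1 (0.358, 0.018) and Chordc1 (0.321, 0.023). With group means taken off, Rbm3 passed with Hspa8 (0.321, 0.021) but not with Dnajb1 (0.096, 0.49) or Chordc1 (0.1, 0.48). Rbm3 followed the length slope in that set, and with the slope regressed out of the group-centred values r turned to −0.067 with Hspa8 (adjusted p 0.71) and −0.337 with Chordc1 (0.04). Hspa1a ran there against Hspa8 (−0.499, 0.0011) and Chordc1 (−0.425, 0.0029). The value with Hspa8 was −0.343 with group means taken off and did not pass with the slope regressed out (−0.216, adjusted p 0.18). That of Hspa1a with Chordc1 did not pass with group means taken off (−0.216, permutation adjusted p 0.17). Cirbp gave −0.227 with Dnajb1 (0.13) and −0.128 with Hspa8 (0.39) there with the means of each sex taken off. With group means taken off both passed, at −0.544 (permutation adjusted p 0.0014) and −0.349 (0.043). Dnajb1 and Hspa8 varied together, with r of 0.608 and 0.614 in the 6-month striatum and cortex (0.432 and 0.436 without the 2 farthest). The high r between Hspa1a and Hspa1b (0.908 and 0.939 at 6 months) includes the reads that they share.

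A mouse's level of Cirbp was shared by its striatum and cortex. Over the 50 mice of 6 months r between tissues was 0.761 (rho 0.618, permutation adjusted p 3e-05 over 18 relations) and 0.706 without the 2 farthest mice, and it was positive in 5 of 5 groups. At 12 months, with the means of each sex taken off, r was 0.789 over 57 mice (permutation, adjusted p 0.00015). Chordc1 gave 0.618 (rho 0.697) at 6 months and 0.734 at 12 months. Dnajb1 gave 0.751 (rho 0.529) and 0.471. Rbm3 gave 0.688 (rho 0.652) at 6 months. At 12 months Rbm3 gave 0.331 with group means taken off (rho 0.375, permutation adjusted p 0.0042 for r). With the means of each sex taken off it was 0.153 and did not pass (adjusted p 0.21). Hsp90aa1 did not rise in both tissues together. Its r was 0.08 at 6 months (rho 0.137, permutation adjusted p 0.64). At 12 months it was −0.312 with group means taken off (rho −0.274, permutation adjusted p 0.029 for r and 0.058 for rho), below 0 in 6 of 6 groups, and −0.243 with the means of each sex taken off (adjusted p 0.12). For Hspa1a the 6-month r of 0.621 rested on the 2 farthest mice and was 0.167 without them.

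**Figure D5:**
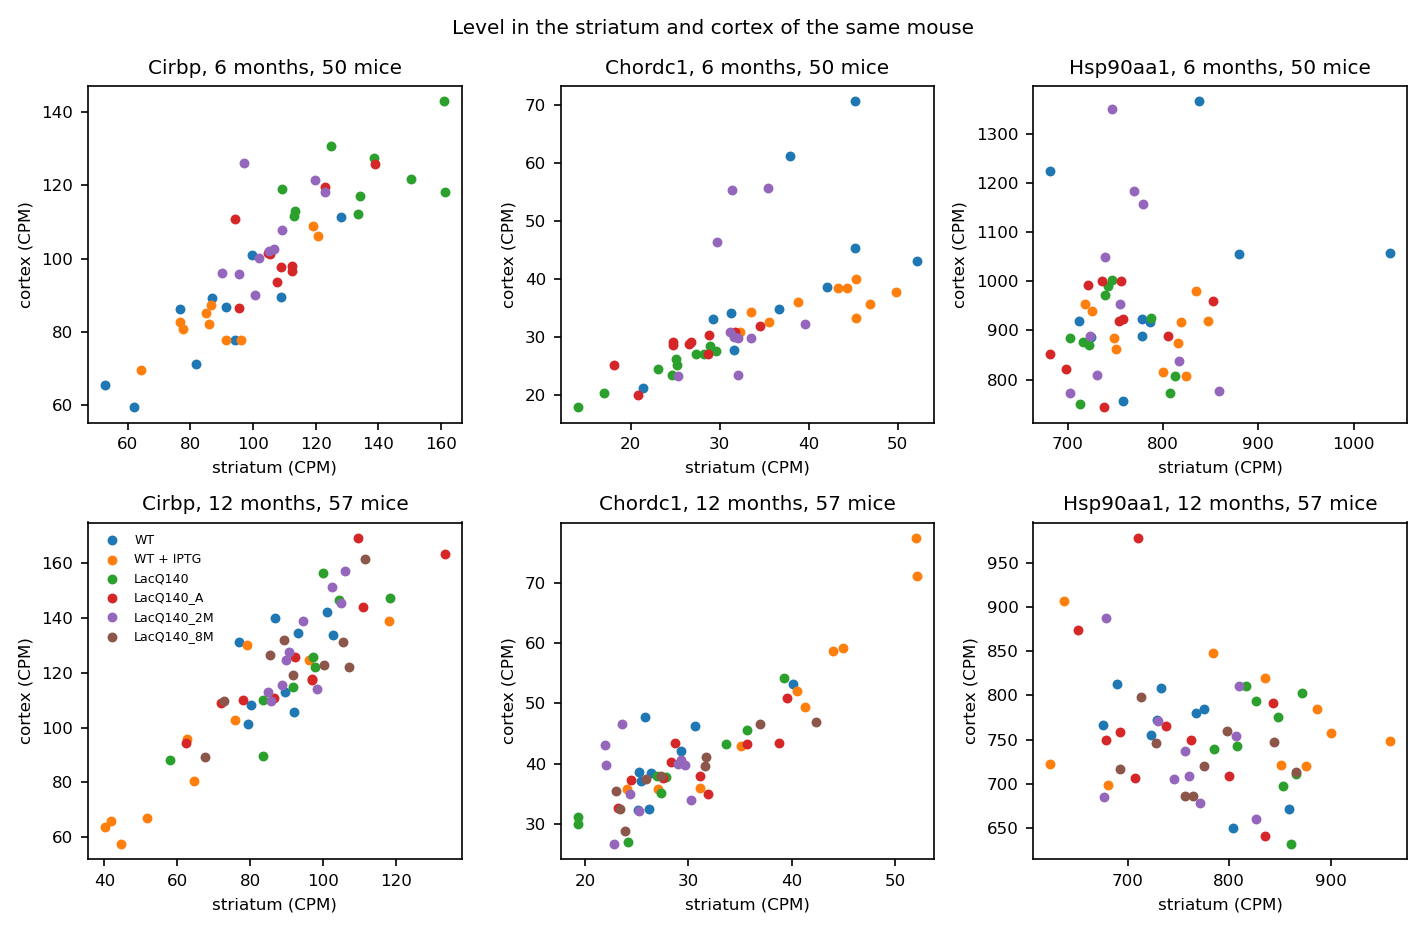
Level in the striatum (horizontal axis, CPM) and cortex (vertical axis, CPM) of the same mouse for Cirbp, Chordc1 and Hsp90aa1, at 6 months (50 mice) and 12 months (57 mice), with colours for the groups. Cirbp and Chordc1 lie along a rising line at both ages, and Hsp90aa1 does not. The points are CPM without group means taken off, so they include differences between groups. The r of Hsp90aa1 on log2 values with group means taken off was 0.08 at 6 months.

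The genes whose pattern was most like each of the 9 were ranked, among 13712 genes with a mean of at least 1 CPM, by the lowest group-centred r over the 4 sets of 50 to 60 libraries. For Cirbp they were Mir9-3hg (0.76), Xpa (0.635) and Bend5 (0.613), and Rbm3 itself came in at 0.627. For Rbm3 they were Mir22hg (0.74), Hmgb3 (0.659) and Parn (0.628). For Chordc1 they were Rngtt (0.829), Srsf10 (0.815), which encodes a splicing regulator, and Uhrf2 (0.733). Hsph1 had Hspa4 (0.804), another HSP110 family member, Hsp90b1 (0.775), the endoplasmic reticulum HSP90, and Scn2b (0.693). Hspa8 had Stip1 (0.787), the adaptor between HSP70 and HSP90, Calr (0.74) and Hspa5 (0.729). Dnajb1 had Hspa8, one of the 9, first (0.608), then Dusp14 (0.605), Hspa5 (0.583) and Dnaja4 (0.554). Hspa1a had Hspb1 (0.546), a small heat shock protein gene, Jun (0.527) and Myh9 (0.473), and Hspa1b had Serpinh1 (0.525), the collagen chaperone, Hspb1 (0.5) and Efnb1 (0.453). For Hsp90aa1 they were Zc3h15 (0.633), Canx (0.608) and Zfp638 (0.558). The libraries of a set share a batch, and these values are a description.

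Lists of related genes placed the 9 genes among related ones. The 4 lists held 25 other heat shock response genes, 12 endoplasmic reticulum stress genes, 15 CLK kinases and SR proteins, which are splicing regulators, and 10 immediate early genes. In the 6-month striatum of LacQ140 against WT + IPTG, 7 of the 12 endoplasmic reticulum genes fell and 0 rose, with a median of −0.29. They included Hsp90b1 (−0.39 ± 0.049, adjusted p 1.9e-08) and Pdia4, a disulfide isomerase (−0.48 ± 0.067, 4e-07). Of the 25 heat shock genes 1 rose, Hspa2 (0.34 ± 0.052, 1.8e-06), and 4 fell, Cryab (−0.44 ± 0.072, 8.7e-06), Serpinh1 (−0.37), Ptges3 (−0.30) and St13 (−0.27), with a median of −0.11. Clk3 and Srsf10 fell, both at −0.34, and Fos rose by 1.0 ± 0.202 (adjusted p 0.00025). The background is the 7.93% above. In the 12-month cortex Sdf2l1 (−0.73 ± 0.153, adjusted p 0.024) and Hspa5, the endoplasmic reticulum HSP70 also called BiP (−0.45 ± 0.103, 0.043), fell in LacQ140 and no other listed gene changed (background 0.0899%). By sex 1 of the 12 endoplasmic reticulum genes was lower in females (background 0.0276%) and 0 in males (0.0123%). In WT females of that set 3 of the 12 were higher with IPTG (median 0.33; background 0.0891%). As a description, the 6-month cortex had 4 of the 12 endoplasmic reticulum genes lower in LacQ140 (Pdia4, Hspa5, Pdia6 and Calr), Serpinh1 lower and 5 of the 10 immediate early genes higher (Dusp1, Fos, Nr4a1, Ier2 and Junb; median 0.59; background 0.881%). The WT + IPTG libraries of that comparison differed from WT themselves, with 5 of the 10 immediate early genes lower with IPTG (Dusp1, Fos, Nr4a1, Arc and Egr2; median −0.59; background 0.609%). The 12-month striatum had 5 of the 12 endoplasmic reticulum genes lower, 6 of the 10 immediate early genes lower and none higher (median −0.84), and of the heat shock genes Hspa2 higher and Hspb1, Hspb8 and Serpinh1 lower (background 9.44%). In females fitted alone 8 of the 10 immediate early genes (median −1.12), 8 of the 12 endoplasmic reticulum genes and 8 of the 25 heat shock genes were lower there (background 8.79%). In males these were 1 (median −0.38), 2 and 2, with 1 heat shock gene higher (background 7.86%).

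Against WT, the LacQ140_A striatum at 6 months had 4 splicing regulators lower (Srsf10 at −0.41 ± 0.076 with an adjusted p of 0.0013, Tra2a at −0.38, Srsf7 at −0.34 and Srsf3 at −0.31), 4 of 12 endoplasmic reticulum genes lower (Pdia4, Manf, Hspa5 and Creld2) and 3 of 25 heat shock genes lower (Serpinh1, Cryab and Cacybp). No listed gene rose there, and the background is 0.91%. In the cortex at 6 months, again without IPTG, Srsf10 (−0.51 ± 0.103, adjusted p 0.0092), Srsf7 (−0.47), Srsf3 (−0.43) and Hspa5 (−0.30) were lower (background 0.425%). With IPTG in the WT striatum at 6 months Fos (−0.87 ± 0.202, adjusted p 0.019) and Nr4a1 (−0.84 ± 0.203, 0.028) fell, and for sex over all groups Hspb1 was the one listed gene past the threshold, at −0.38 in males of the 12-month striatum, a description. None of the listed genes changed in any of the comparisons of lowered mice with LacQ140. For the difference of the IPTG effect between the sexes in the 12-month striatum, described only, 8 of the 10 immediate early genes had a smaller effect in males (median −1.26), as did 6 of the 25 heat shock genes (median −0.20) and 5 of the 12 endoplasmic reticulum genes (median −0.37), against 4.38% of all genes. In females alone 9 of the 10 immediate early genes, 9 of the 12 endoplasmic reticulum genes and 10 of the 25 heat shock genes were higher with IPTG, against 9.03% of all genes called, and in males 0 of each list were called.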

How the data were processed

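RNA was extracted from flash-frozen striatum and cortex and sequenced, giving 217 libraries. The deposited tables hold estimated counts per gene (1 table for each age; expected counts, 32.22% of nonzero values being more than 1e-06 from a whole number), which the authors made against GRCm38, per the labels. The aligner and the counting tool are not given in the sources used here. Of 54532 gene identifiers 54495 matched the annotation (GENCODE vM21). No column of per-sample values lacked a sample.

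Counts were rounded and fitted with edgeR 4.0.16 (quasi-likelihood, TMM; R 4.3.3, limma 3.58.1), with all groups of 1 tissue and age together and every gene with at least 1 count. A call needed a Benjamini-Hochberg adjusted p under 0.05 over all genes and a change of 20% or more. Tissue was compared with mouse as a block over 107 mice with both tissues. DESeq2 1.42.0 was an alternative. Correlations used log2(CPM + 0.5) and two-sided permutation tests (numpy 2.4.6, pandas 2.3.3, scipy 1.17.1). The fit was tested on simulated data. Among 963 pairs of libraries of 1 group, counts differed with a chi-square of at least 6.15 per degree of freedom, beyond sampling noise. Depths were 33292057 to 68038831 counts, and no limit of a count of 0 was needed.

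The 9 genes and the lists were chosen with earlier results of these data known. All 9 are named. Listed genes are named where 5 or fewer were called in a comparison, otherwise by the smallest p-values, and the 3 most alike genes are named for each of the 9. The splits by sex were chosen after the values had been seen. Alternatives were DESeq2, its size factors, filterByExpr, no fold change bound, the compared groups alone, a replicate block, covariates for sex and length slope, Hspa1a and Hspa1b summed, each sex alone and each library left out. The RefSeq promoter table (GRCm38.p6) gave the sequences.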

Additional observations from a re-analysis of the deposited data

Results flagged for a closer look

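Of 198 groups of 9 or 10 libraries tested for a value far from the rest (9 genes, each tissue, age and group), 12 held one, and chance alone flags about 1 in 20 groups. Of these 6 came from 1 mouse, WT M3 at 6 months. In its striatum Hspa1a was at 32.7 CPM (next highest 6.499), Hspa1b at 29.3 CPM (next 4.36) and Dnajb1 at 109 CPM (next 74.6). In its cortex Hspa1a was at 48.03 CPM (next 10.5), Hspa1b at 42.5 CPM (next 9.52) and Dnajb1 at 110.5 CPM (next 75.5). The same animal was thus high in both tissues for the HSP70 genes and their HSP40 partner. LacQ140 F3 of the 12-month striatum was low for both cold genes, with Cirbp at 57.9 CPM (next lowest 83.5) and Rbm3 at 92.3 CPM (next 124.7). Among the others, Hspa1b was at 8.12 CPM in WT + IPTG F1 of the 12-month cortex, Dnajb1 at 66.7 CPM in LacQ140 F3 of the 6-month striatum, Chordc1 at 19.9 CPM in LacQ140_A F2 of the 6-month cortex and Chordc1 at 40.1 CPM in WT M3 of the 12-month striatum, which is another mouse than the 6-month WT M3.

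For the IPTG effect in the 12-month striatum of WT mice, edgeR's interaction with sex was past the threshold for 8 of the 9 genes and 4.38% of all genes. The split was noticed in the values before it was fitted, on the libraries that had chosen Hspa1b, so these values describe that observation and do not test it. The log2 difference, male minus female, was −3.18 for Hspa1b, −1.65 for Hspa1a, −0.81 for Chordc1, −0.59 for Dnajb1, −0.51 for Hsph1 and −0.49 for Hsp90aa1, and 1.02 for Rbm3 and 0.87 for Cirbp.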

How the results depend on the processing

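Counts below are of the 9 genes past the threshold. For alternatives other than the single-sex fits, the share of all genes called is mostly not given. A moved count there cannot be told apart from a shift in calls over all genes. For LacQ140 against WT + IPTG the count in the 6-month striatum was 3 in every fit without 1 library. In the 6-month cortex it was 2, and 1 with DESeq2 size factors, 1 with the replicate block and 1 to 2 without 1 library (Chordc1 was lost in 17 of 20 fits). It was 1 in females (background 0.0439%) and 0 in males (0.00586%). With the compared groups alone Rbm3 was past the threshold there as well. In the 12-month striatum it was 6, 0 in males, 5 with the replicate block (without Hspa1a) and 4 to 7 without 1 library, and 4 with the compared groups alone (without Rbm3 and Hspa1a). In the 12-month cortex it was 0, and 1 in females, with the length slope as a covariate or with the compared groups alone. In the males of the 12-month striatum Hspa1a (0.34 ± 0.161) and Hspa1b (0.32 ± 0.312) had the opposite sign, and neither was past the threshold.

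For IPTG in WT the 12-month striatum count of 2 was 4 with DESeq2, 4 with filterByExpr, 9 in females, 0 in males, 0 with the compared groups alone and 1 with the replicate block. It was 0 to 6 without 1 library, changing by over 1.5 times without WT F5 or WT + IPTG F1, F4, F5, M4 or M5. In males Hspa1a (−0.03 ± 0.165) and Hspa1b (−0.3 ± 0.314) had the opposite sign, with errors larger than the values. The 6-month striatum count of 0 was 1 with filterByExpr, 2 with the length slope, 3 in males and 1 with sex as a covariate, and 0 to 3 without 1 library (WT F1, F2, F3, F5, M1 or M5, or WT + IPTG F1 or F2). The 12-month cortex count of 0 was 2 in females and 1 with the length slope, and its sex difference was 1 with filterByExpr.

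For lowering, the LacQ140_A count of 1 in the 6-month striatum was 2 with the compared groups alone and 0 to 1 without 1 library. The LacQ140_A count in the 12-month cortex went from 0 to 1 (Rbm3) with the compared groups alone. The LacQ140_2M count of 2 in the 6-month striatum was 1 with the length slope, 1 with the replicate block and 0 to 2 without 1 library. LacQ140_A against WT in the 6-month striatum went from 2 to 0 with the compared groups alone, 1 with the replicate block and 0 to 3 without 1 library. In the 6-month cortex it went from 0 to 1 with DESeq2, 1 with filterByExpr, 2 with the length slope and 0 to 2 without 1 library (LacQ140_A M5, WT F1, F4 or F5). The sex count in the 12-month striatum went from 1 to 2 with Hspa1a and Hspa1b summed and 2 with the length slope, and in the 12-month cortex from 0 to 1 with the length slope and 0 to 1 without 1 library (LacQ140_2M M4). Regressing out the length slope reversed Rbm3 with Chordc1 (−0.337), Rbm3 with Hspa8 (−0.067) and Hsph1 with Chordc1 (0.371) in the 12-month cortex, and all 6 correlation counts stayed within 1.5 times. The cause of each change was not tested, except that single-sex fits and fits of the compared groups hold fewer samples.

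Libraries of different groups share replicate numbers, but the numbers did not pair them. Same-numbered libraries of 1 sex had a median correlation of their deviations of −0.061 in the 6-month striatum, 0.018 in the 6-month cortex, −0.034 in the 12-month striatum and 0.043 in the 12-month cortex, and libraries did not all correlate best with their own number. The replicate block changed 5 of 26 counts, each given above. The limits are the shared reads of Hspa1a and Hspa1b, the low counts of both, 1 cage type for each sex and group, and a 12-month cortex whose length slope stood apart.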
